A study of Mus musculus with 10 samples.

Results

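The collagen genes described here are the rows of the deposited expression table whose symbol is Col, digits, a and digits, provided that 2 or more libraries reached a value of 10. The rule kept 42 of 43 such rows, among 15694 genes that passed the same filter and 16290 genes in the whole table. Col10a1, a short-chain collagen of growth plate cartilage, did not pass: it reached 11.3 in NIC-Carm1 replicate 1 and no more than 4.24 in any other library. Col22a1 was not analysed here. By the structures their chains build, 11 of the 42 genes encode fibrillar collagens, 8 encode collagens of basement membranes and 23 belong to other types, which were 6 beaded filament, 8 fibril-associated, 2 short-chain network, 4 transmembrane and 3 remaining genes.

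The RNA came from mammary epithelial cells of the FVB strain, which were isolated from the glands with enzymes and brief centrifugation, and it was sequenced after poly-A selection. There were 3 libraries of genotype NIC-Prmt1, 3 of NIC-Carm1, 2 of NIC-Prmt6 and 2 of NIC, and these numbers are n for every mean and SD below. All 10 libraries share the NIC genotype, which the labels do not spell out, and the other genotypes add overexpression of a protein arginine methyltransferase (PRMT), an enzyme that methylates arginines in histones and other proteins. The labels give neither the promoter that drives the PRMT genes, nor the age of the mice, nor whether each library came from a separate animal, so p-values measure the spread between these libraries, which may be technical.

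Collagens are secreted proteins whose chains wind around each other into a rope-like helix. Fibrillar collagens assemble into the tough fibres of connective tissue, type IV collagens form the sheet of the basement membrane under epithelia and around vessels, and the remaining types link, coat or anchor these structures. In the mammary gland, fibroblasts make most of the fibrillar collagen around the ducts, and epithelial, myoepithelial and endothelial cells contribute to basement membranes. In RNA from mixed cells, fewer cells of a type and less RNA per cell cannot be told apart.

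Several facts of the libraries bear on the results. The recovered reads ranged from 21589274 to 30260921 per library. Both NIC-Prmt6 libraries resembled each other far more than replicates elsewhere did, as did NIC-Carm1 replicate 2 and NIC-Carm1 replicate 3: a chi-square of their reads over genes, divided by its degrees of freedom, was 2.41 to 2.65, against 27.2 to 101 for the 6 other pairs within a group. Counts of changed genes over all 42 collagens and over the lists of collagen partners are therefore also given with these libraries averaged to 1, and those of collagen types and cell markers where averaging moved them by more than 1.5 times. Prmt6 was at 891 ± 25.6 in NIC-Prmt6 and 419 ± 45.1 in NIC (SD), and Carm1 at 2316 ± 167 in NIC-Carm1 and 1562 ± 7.33 in NIC. Carm1 was likewise at 2155 ± 140 in NIC-Prmt1 and 2363 ± 97.4 in NIC-Prmt6. Neither of these 2 groups passed for Carm1 against NIC-Carm1 (adjusted p = 0.379 for NIC-Prmt1 and 0.814 for NIC-Prmt6, limma). Carm1 thus does not set NIC-Carm1 apart from them. Prmt1 was at 2975 ± 278 in NIC-Prmt1 and 2876 ± 284 in NIC, a difference that did not pass (adjusted p = 0.784, limma). The NIC-Prmt1 label was therefore not checked by its gene, and group names below mean the libraries labelled so. Markers of luminal epithelial cells summed to between 6395 and 11998 CPM in the 10 libraries, where CPM is the level after each library is scaled to the same total. Markers of fibroblasts and vessels were present in all of them too and are given beside the results they move with.

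Values are normalised read counts, which the authors obtained by dividing each gene's reads by a size factor per library. Levels of different genes are compared only after division by exon length, as normalised reads per kilobase. Fold changes are on the log2(value + 1) scale with the standard error from limma, fitted on all 10 libraries and all 15694 genes, and a gene is said to have risen, fallen or changed where its adjusted p was under 0.05 (Benjamini-Hochberg over all genes tested).

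The results turn on a group of abundant stromal collagens that were higher in NIC-Prmt6 and NIC-Prmt1, and on type IX and XI genes that were lower there. The promoters of the leading members are shown so that the base composition of both kinds can be read: the 250 bases before the annotated start, from RefSeq on GRCm38.p6, 5′ to 3′ on the strand of the gene, for Col9a1 (chr1:24177360-24177609, plus strand, the first of 2 starts in the table), Col11a1 (chr3:114030290-114030539, plus strand), Col3a1 (chr1:45311288-45311537, plus strand) and Col6a3 (chr1:90843972-90844221, minus strand). None of these bases is exonic. Capitals mark exact matches, on either strand, to CCAAT (the CCAAT box), AACAAT (a core that SOX factors bind) or TATAAA (the TATA box).
Col9a1: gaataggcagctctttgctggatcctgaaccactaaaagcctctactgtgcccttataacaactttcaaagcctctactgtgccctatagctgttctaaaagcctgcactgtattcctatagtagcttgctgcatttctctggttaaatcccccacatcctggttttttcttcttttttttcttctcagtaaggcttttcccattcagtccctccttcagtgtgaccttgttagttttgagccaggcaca
Col11a1: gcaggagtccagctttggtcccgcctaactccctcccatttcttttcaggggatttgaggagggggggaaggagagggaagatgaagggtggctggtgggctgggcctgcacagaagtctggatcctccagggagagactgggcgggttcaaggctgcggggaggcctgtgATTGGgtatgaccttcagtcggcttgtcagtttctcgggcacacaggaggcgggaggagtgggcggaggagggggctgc
Col3a1: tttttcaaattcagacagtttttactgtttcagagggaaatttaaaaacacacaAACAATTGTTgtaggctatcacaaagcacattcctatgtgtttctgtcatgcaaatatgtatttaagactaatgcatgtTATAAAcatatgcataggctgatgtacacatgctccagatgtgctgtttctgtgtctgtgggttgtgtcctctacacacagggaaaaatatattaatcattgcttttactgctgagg
Col6a3: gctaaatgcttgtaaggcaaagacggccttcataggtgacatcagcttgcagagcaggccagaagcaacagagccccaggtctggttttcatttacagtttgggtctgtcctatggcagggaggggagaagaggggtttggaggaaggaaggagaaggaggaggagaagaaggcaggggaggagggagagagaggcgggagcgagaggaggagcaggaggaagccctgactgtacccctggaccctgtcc

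Col11a1 held a CCAAT box on the opposite strand (ATTGG), 79 to 75 bases before the start. Col3a1 held TATAAA 117 to 112 bases before the start, and AACAAT at 196 to 191 overlapping ATTGTT, its opposite strand form, at 192 to 187. Col9a1 and Col6a3 held none of the 3 motifs in this window. The G and C content was 43.6% for Col9a1 and 62.4% for Col11a1, which were lower in NIC-Prmt6, and 35.2% for Col3a1 and 57.2% for Col6a3, which were higher. Of the 34 collagen genes with a promoter in the RefSeq table, 13 (38.2%) held the CCAAT box, 1 (2.94%) the SOX core and 4 (11.8%) the TATA box, beside 33.8%, 9.42% and 12.4% of all 32851 promoters of the same length. A collagen gene counted if any of its starts held the motif, while all promoters were counted singly, so these shares are not like for like. These letter matches are descriptions of the windows.

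The collagen genes together took 1.14%, 0.940% and 1.04% of the reads in NIC-Prmt1 replicates 1 to 3, 0.852%, 0.702% and 0.712% in NIC-Carm1, 1.65% and 1.64% in NIC-Prmt6, and 0.635% and 0.724% in NIC. Every NIC-Prmt1 and NIC-Prmt6 library lay above every NIC-Carm1 and NIC library. Averaged over all libraries, the level per kilobase of exon ran from 4994 for Col3a1 and 4397 for Col1a1 to 2.22 for Col2a1, the cartilage fibril collagen. The order differed between groups. In NIC-Prmt6 the highest level per kilobase was that of Col3a1 (10189), followed by Col1a1 (8791), Col1a2 (5280) and Col6a1 (4679). In NIC the highest was Col9a1 (4651), followed by Col1a1 (2927), Col3a1 (2747) and Col9a2 (2117).

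**Figure D1:**
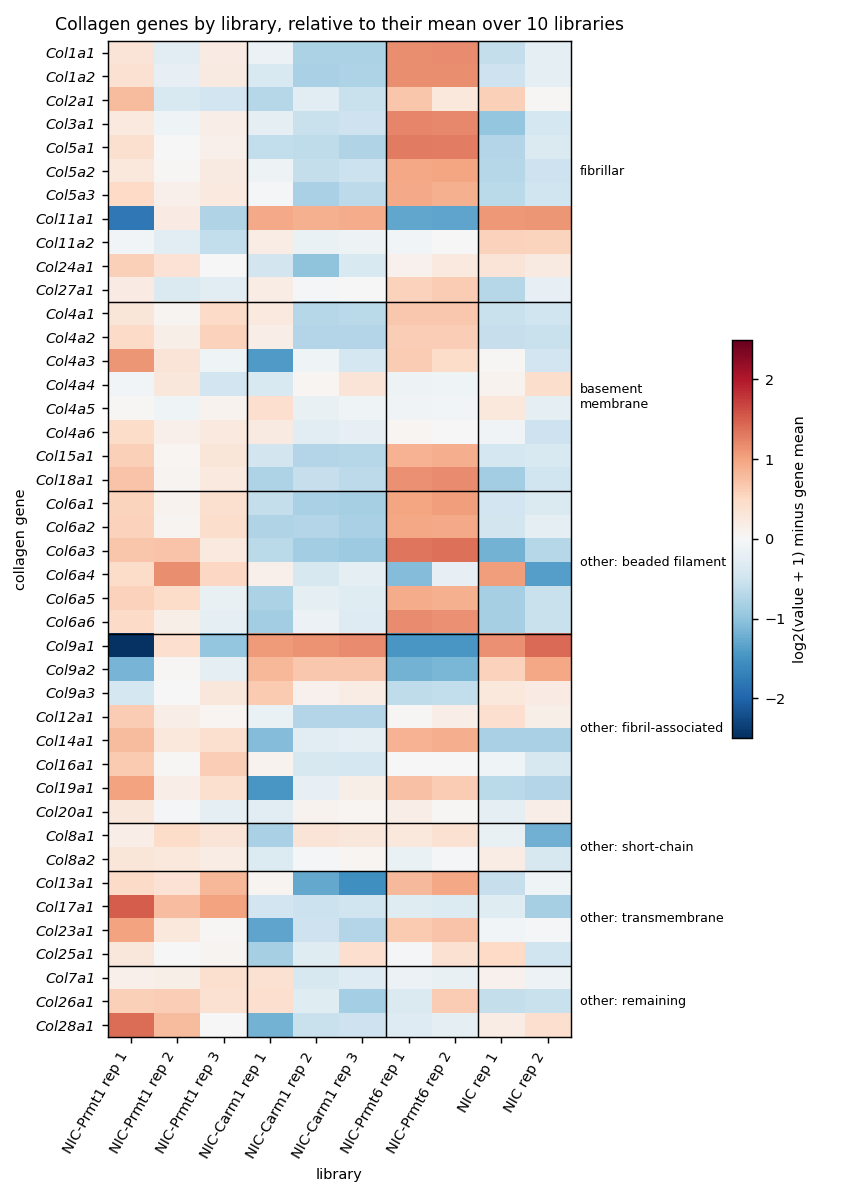
Each row is a collagen gene, grouped by type, and each column a library; the colour is log2(value + 1) minus the mean of the gene over the 10 libraries. The rows of Col9a1, Col9a2 and Col11a1 run opposite to those of Col1a1, Col3a1, Col5a1 and Col6a3, and NIC-Prmt1 replicate 2 lies between the other NIC-Prmt1 libraries and NIC for Col9a1 (12972, against 1741 and 4932).

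In the NIC-Prmt6 libraries, 23 of the 42 collagen genes differed from NIC, 18 higher and 5 lower, where 36.8% of all genes tested differed (19.0% higher and 17.8% lower). The median log2 fold change of the 42 genes was 0.76, beside -0.01 for all genes. Fibrillar collagens rose in 7 of 11 genes and fell in 2, basement membrane collagens rose in 4 of 8, and beaded filament collagens rose in 5 of 6. Fibril-associated collagens rose in 1 of 8 genes and fell in 3. With the near-identical libraries averaged, 14 genes rose and 2 fell, and the basement membrane collagens rose in 2 and the fibril-associated ones in 1, with 1 fall.

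The fibril formers of interstitial connective tissue led. Col3a1, the type III collagen of pliable tissues, had 100537 and 99493 normalised reads in NIC-Prmt6, against 22048 and 31890 in NIC. Col1a2, a chain of type I collagen, had 65704 and 65525 in NIC-Prmt6, against 20438 and 25088 in NIC. Both NIC-Prmt6 libraries lay above both NIC libraries for each gene, and the log2 fold change was 1.92 ± 0.21 (adjusted p = 0.000238, limma) for Col3a1 and 1.53 ± 0.21 (adjusted p = 0.000779, limma) for Col1a2. Its partner chain Col1a1 averaged 57698 ± 806 in NIC-Prmt6 and 19207 ± 3244 in NIC (SD) and rose by 1.60 ± 0.26. Col5a1, which joins type I fibrils and limits their width, had 11423 and 11312 in NIC-Prmt6, against 2813 and 3612 in NIC, a rise of 1.83 ± 0.15 (adjusted p = 7.44e-05, limma). Col5a2 and Col5a3, the other type V chains, rose by 1.60 ± 0.16 and 1.50 ± 0.22, and Col27a1, a fibrillar collagen known from cartilage, by 1.06 ± 0.20. These rises passed in every alternative except that of Col27a1, which ended with the near-identical libraries averaged (adjusted p = 0.0520).

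Among the other types, the type VI genes Col6a3 and Col6a6 rose furthest. Type VI collagen forms beaded filaments between cells and fibrils. Col6a3 had 28861 and 29859 normalised reads in NIC-Prmt6, against 5097 and 7031 in NIC, and its log2 fold change of 2.29 ± 0.19 was the largest of the 42 (adjusted p = 7.48e-05, limma). Col6a1 had 20208 and 20777 in NIC-Prmt6, against 7285 and 7887 in NIC, a rise of 1.43 ± 0.15. The groups did not overlap for either gene. Col6a2, Col6a5 and Col6a6 rose by 1.30 ± 0.16, 1.60 ± 0.27 and 1.86 ± 0.27. Col6a4 was at 14.5 and 27.5 in NIC-Prmt6 and at 67.1 and 11.7 in NIC, which overlapped. Col14a1, which coats fibrils in dense connective tissue, rose by 1.69 ± 0.26 (adjusted p = 0.00121, limma).

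Basement membrane collagens split by chain. Col4a1 and Col4a2, the chains of the common type IV network, lie head to head on chromosome 8 (GRCm38, 11198423 to 11312826 on the minus strand and 11312805 to 11449287 on the plus strand) and share 22 bases of exon. The strand setting of the counting is not given in the sources used here, so reads in that overlap cannot be assigned. Col4a1 had 32446 and 32480 normalised reads in NIC-Prmt6, against 13996 and 14502 in NIC. Col4a2 had 21318 and 21393 in NIC-Prmt6, against 9364 and 9460 in NIC. No library of either group overlapped the other, and the log2 fold changes were 1.19 ± 0.28 and 1.18 ± 0.27. The Col4a1 call ended without either NIC-Prmt6 library (adjusted p = 0.0534 without replicate 1 and 0.0530 without replicate 2, limma), and both calls ended with near-identical libraries averaged (0.0664 for Col4a1 and 0.0622 for Col4a2). Col15a1 and Col18a1, which carry anti-angiogenic fragments at their ends and sit in vascular and epithelial basement membranes, rose by 1.30 ± 0.16 and 1.85 ± 0.20 in all alternatives. Col4a3, Col4a4, Col4a5 and Col4a6, chains of more restricted networks such as that of the kidney filter, had log2 fold changes between -0.38 and 0.77 and did not pass.

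Type IX and type XI collagens went the other way. Type IX collagen decorates cartilage fibrils, and type XI collagen forms their core with type II. Col9a1 had 3506 and 3544 normalised reads in NIC-Prmt6, against 21264 and 25880 in NIC. Col11a1 had 1453 and 1428 in NIC-Prmt6, against 7546 and 7618 in NIC. The NIC-Prmt6 libraries lay below the NIC libraries for both, with log2 fold changes of -2.73 ± 0.66 (adjusted p = 0.00998, limma) and -2.40 ± 0.45 (adjusted p = 0.00337, limma). Col9a2 had 1668 and 1716 in NIC-Prmt6, against 5691 and 7413 in NIC, a log2 fold change of -1.94 ± 0.30. Col9a3, the third chain of type IX, had 1088 and 1105 in NIC-Prmt6, against 2037 and 1953 in NIC, and changed by -0.86 ± 0.23. It overlaps exons of Tcfl5 on the opposite strand over 234 bases, so part of its reads is uncertain. Col11a2 had 225 and 235 in NIC-Prmt6, against 350 and 347 in NIC, a change of -0.60 ± 0.20 (adjusted p = 0.0417, limma).

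The Col11a1 and Col9a2 falls held in every alternative. That of Col9a1 ended without NIC replicate 2 (adjusted p = 0.0617), without NIC-Prmt6 replicate 1 (0.0561) or 2 (0.0546) and on averaging (0.0827, all limma). That of Col9a3 ended without any single library of the 2 groups (adjusted p from 0.0617 to 0.0774, limma), and that of Col11a2 did so too (0.116 to 0.170) and also without NIC-Carm1 replicate 2 (0.0546) or 3 (0.0577). Col2a1, the type II partner of types IX and XI in cartilage, was at 31.7 and 23.2 in NIC-Prmt6 and at 29.3 and 19.5 in NIC, an overlap.

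**Figure D2:**
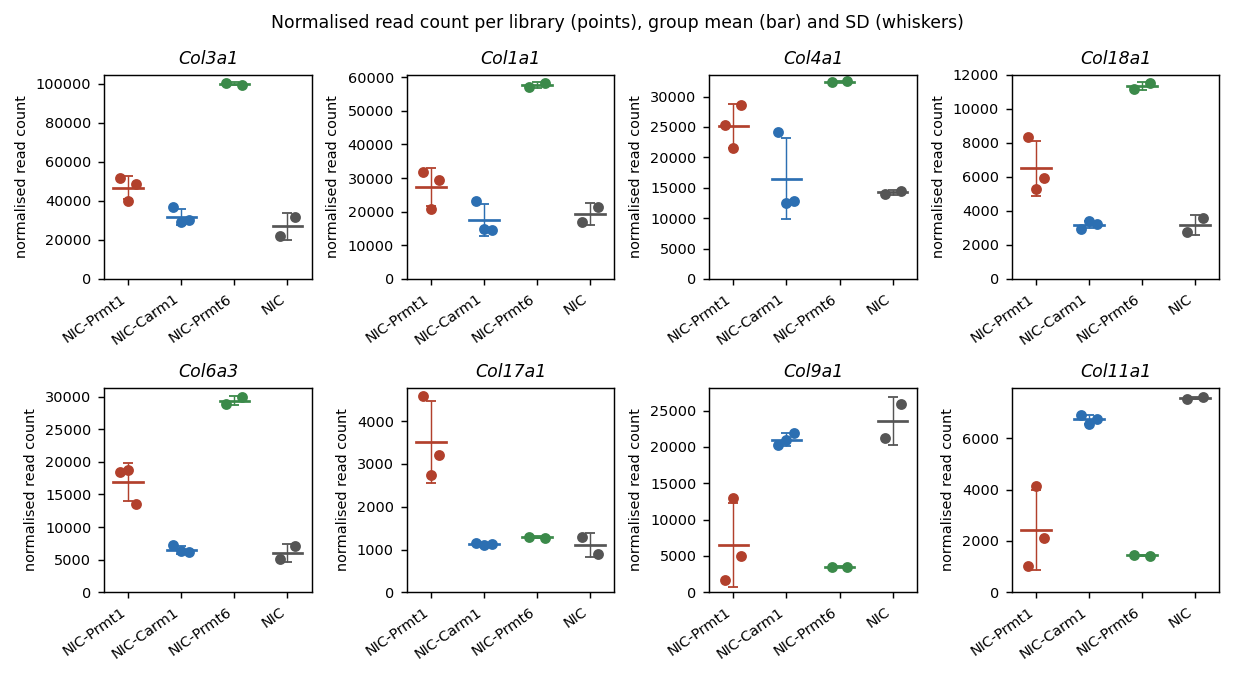
Normalised read count of selected collagen genes in each library, with groups on the x axis, points for libraries, bars for group means and whiskers for SD; each panel has its own linear axis from 0. Col3a1 reached 100537 and 99493 in NIC-Prmt6 with all other libraries at or below 51530, and Col9a1 was at 3506 and 3544 in NIC-Prmt6 with NIC at 21264 and 25880.

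In the NIC-Prmt1 libraries, 21 of the 42 collagen genes differed from NIC, 17 higher and 4 lower, where 29.6% of all genes tested differed (15.2% higher and 14.4% lower). The median log2 fold change of the 42 genes was 0.67, beside -0.0037 for all genes. Fibrillar collagens rose in 4 of 11 genes and fell in 2, basement membrane collagens rose in 5 of 8, beaded filament collagens rose in 5 of 6, and fibril-associated collagens rose in 2 of 8 and fell in 2. The count was 13 without NIC replicate 1 (11 higher and 2 lower) and 13 without NIC replicate 2 (12 higher and 1 lower), and with near-identical libraries averaged it was 16 (13 higher and 3 lower). On averaging, basement membrane collagens rose in 3, and fibril-associated collagens rose in 1 and fell in 1. NIC-Prmt1 and NIC-Prmt6 were set against the same NIC libraries.

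Col17a1 had the largest rise. It encodes a transmembrane collagen of hemidesmosomes, which fasten basal epithelial cells to the basement membrane. Col17a1 had 4591, 2742 and 3205 normalised reads in NIC-Prmt1, against 1297 and 901 in NIC. All NIC-Prmt1 libraries lay above all others, with a log2 fold change of 1.66 ± 0.20 (adjusted p = 0.000879, limma). Markers of basal and myoepithelial cells moved with it: their 10 genes came to 6919, 3954 and 5092 CPM in the NIC-Prmt1 libraries and to 2110 and 1804 CPM in NIC. Of these, 9 of 10 rose, where 15.2% of all genes tested did. Skin keratinocyte markers summed to 1192, 10.8 and 91.3 CPM in NIC-Prmt1 and to 8.35 and 6.21 CPM in NIC. Among the NIC-Prmt1 libraries, replicate 1 was highest and replicate 2 lowest for Col17a1 and for both marker sums. The part of either cell type in the Col17a1 difference was not tested.

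Of the stromal collagens, type VI and type V genes rose. Col6a3 had 18461, 18734 and 13588 normalised reads in NIC-Prmt1, against 5097 and 7031 in NIC. Col6a1 had 14995, 10728 and 13347 in NIC-Prmt1, against 7285 and 7887 in NIC. The groups did not overlap for either gene, and the log2 fold changes were 1.48 ± 0.17 (adjusted p = 0.00073, limma) and 0.77 ± 0.14 (adjusted p = 0.00439, limma). Col14a1 rose by 1.29 ± 0.24, and Col5a1, Col5a2 and Col5a3 by 0.71 ± 0.14, 0.79 ± 0.14 and 0.88 ± 0.20. Col3a1 had 51530, 40058 and 48762 in NIC-Prmt1, against 22048 and 31890 in NIC, a rise of 0.81 ± 0.19 (adjusted p = 0.0119, limma). Without NIC replicate 1 this call ended (adjusted p = 0.102), as did those of Col5a3 (0.0684), Col6a2 (0.0546) and Col6a5 (0.10). The type I chains did not pass: Col1a2 had 38322, 25665 and 34251 in NIC-Prmt1, against 20438 and 25088 in NIC, with a log2 fold change of 0.51 ± 0.19 (adjusted p = 0.0720, limma), and Col1a1 was at 0.50 ± 0.23 (adjusted p = 0.132, limma).

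Of the basement membrane genes, Col15a1 (0.73 ± 0.15) and Col18a1 (1.02 ± 0.18) rose in all alternatives. Col4a1 had 25308, 21475 and 28674 normalised reads in NIC-Prmt1, against 13996 and 14502 in NIC. Col4a2 had 19444, 15546 and 20839 in NIC-Prmt1, against 9364 and 9460 in NIC. Every NIC-Prmt1 library lay above both NIC libraries, with log2 fold changes of 0.81 ± 0.25 (adjusted p = 0.0375, limma) and 0.97 ± 0.25 (adjusted p = 0.0167, limma). The Col4a2 call ended without NIC replicate 1 (adjusted p = 0.0766) or 2 (0.0801). The Col4a1 call ended in 8 alternatives, among them without NIC replicate 1 (0.140) or 2 (0.130), without NIC-Prmt1 replicate 1 (0.0771) or 3 (0.0960) and with a replicate block (0.0566). Col4a6, a chain of epithelial basement membranes, rose by 0.57 ± 0.17, a call that ended without NIC replicate 2 (0.257), without NIC-Prmt1 replicate 1 (0.0947) or 3 (0.0647) and without NIC-Prmt6 replicate 1 (0.0563) or 2 (0.0562).

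Col9a1 again had the largest fall. It had 1741, 12972 and 4932 normalised reads in NIC-Prmt1, against 21264 and 25880 in NIC. Col11a1 had 1036, 4130 and 2104 in NIC-Prmt1, against 7546 and 7618 in NIC. The NIC-Prmt1 libraries lay below both NIC libraries and spread widely among themselves, with replicate 2 nearest to NIC in each case. The log2 fold change of Col9a1 was -2.29 ± 0.60 (adjusted p = 0.0191, limma). It was -1.55 without NIC-Prmt1 replicate 1 and -3.00 without replicate 2, and the call ended without NIC replicate 1 (adjusted p = 0.0705) or 2 (0.106) and on averaging (0.0503). That of Col11a1 was -1.86 ± 0.41 (adjusted p = 0.00957, limma) and ended without NIC replicate 1 (0.0520) or 2 (0.0572). Col9a2 had 1708, 3871 and 3206 in NIC-Prmt1, against 5691 and 7413 in NIC, a change of -1.23 ± 0.28 that ended without NIC replicate 2 (0.0829). Col11a2 had 226, 196 and 153 in NIC-Prmt1, against 350 and 347 in NIC, a change of -0.88 ± 0.18 that held in every alternative. Col9a3 had 1241, 1688 and 2058 in NIC-Prmt1, against 2037 and 1953 in NIC, which overlapped and did not pass (adjusted p = 0.306).

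**Figure D3:**
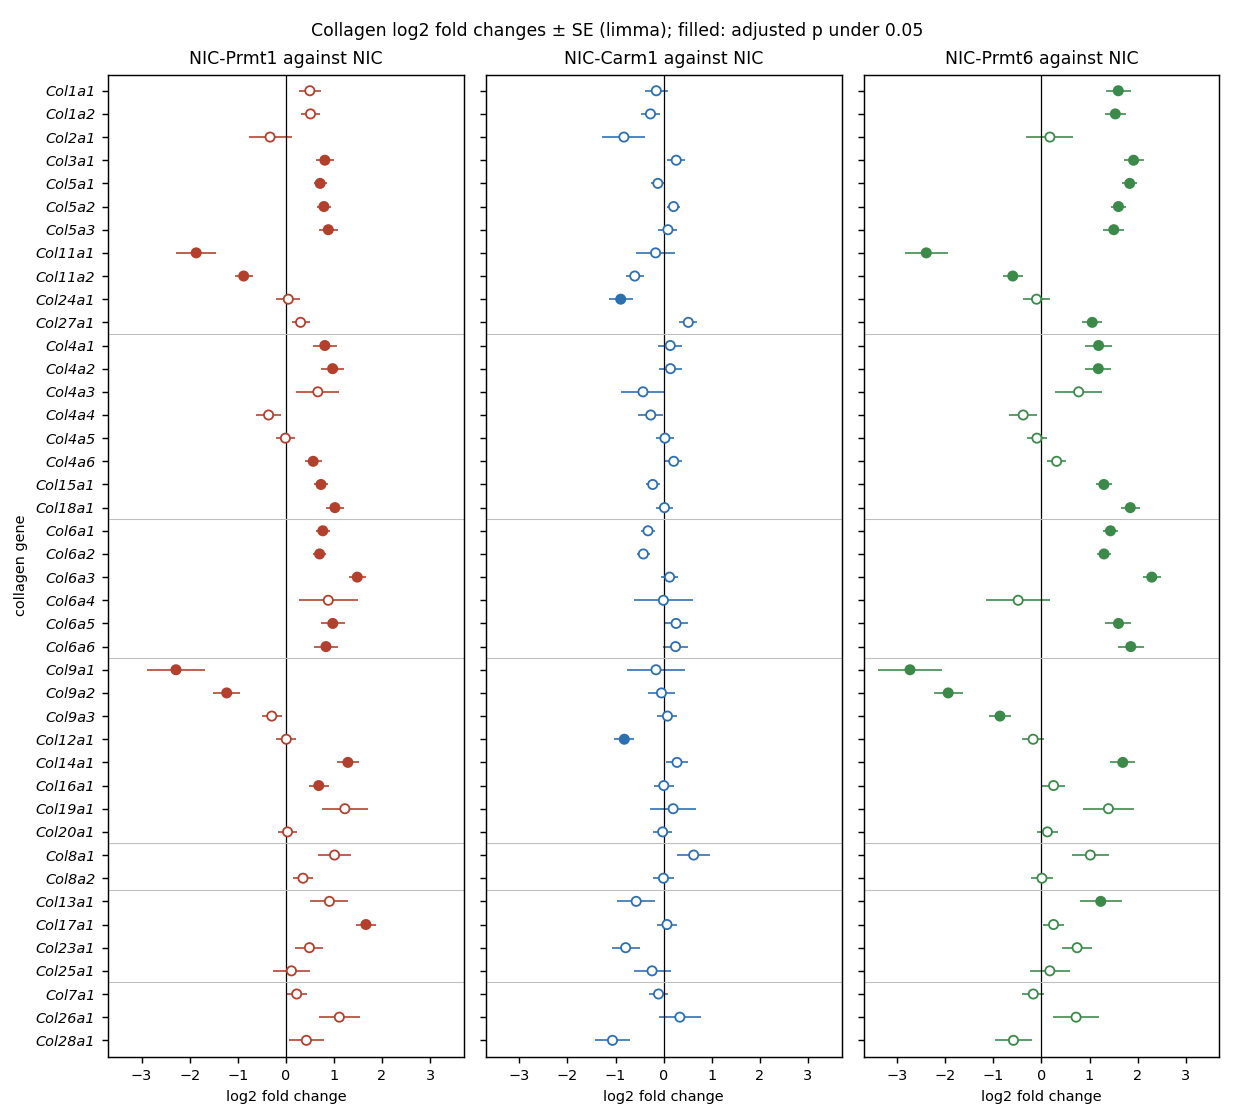
Log2 fold change against NIC of each collagen gene in NIC-Prmt1, NIC-Carm1 and NIC-Prmt6 (panels), with the standard error from limma as whiskers; filled points passed an adjusted p of 0.05. Filled points number 21, 2 and 23 in these panels, and the lowest points are Col9a1 at -2.29 in NIC-Prmt1 and -2.73 in NIC-Prmt6 and Col28a1 at -1.06, not filled, in NIC-Carm1.

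In the NIC-Carm1 libraries, 2 of the 42 collagen genes differed from NIC, both lower, where 16.0% of all genes tested differed (6.65% higher and 9.36% lower). The median log2 fold change of the 42 genes was -0.01, beside 0.0034 for all genes. Col12a1, a fibril-associated collagen of tissues under load, had 1266, 859 and 858 normalised reads in NIC-Carm1, against 1899 and 1565 in NIC, a change of -0.82 ± 0.21 (adjusted p = 0.0266, limma). Col24a1, a minor fibrillar collagen, had 68.7, 46.9 and 72.7 in NIC-Carm1, against 119 and 112 in NIC, a change of -0.89 ± 0.25 (adjusted p = 0.0376, limma). The groups did not overlap for either gene.

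The count was 0 without either NIC library, without NIC-Carm1 replicate 2 or 3 and with near-identical libraries averaged, where limma gave 6 to 7 genes at an unadjusted p under 0.05. It was 6 without NIC-Carm1 replicate 1, 7 without NIC-Prmt1 replicate 1, 4 without NIC-Prmt1 replicate 3 and 1 without either NIC-Prmt6 library, and edgeR and DESeq2 on recovered reads gave 3 and 5. For Col12a1 the adjusted p was 0.169 without NIC replicate 1 and 0.0616 without replicate 2, and 0.0883 and 0.0868 without NIC-Carm1 replicates 2 and 3. For Col24a1 it was 0.161 and 0.114 without NIC replicates 1 and 2, and 0.113 and 0.0592 without NIC-Carm1 replicates 2 and 3.

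The largest differences of NIC-Carm1 from NIC in either direction did not pass. Col8a1, a short-chain collagen of vessels and eye, had 848, 1856 and 1818 normalised reads in NIC-Carm1, against 1302 and 651 in NIC (log2 fold change 0.62 ± 0.35, adjusted p = 0.249, limma). Col28a1, a collagen known from peripheral nerve, had 52.9, 82.2 and 84.4 in NIC-Carm1, against 139 and 164 in NIC (-1.06 ± 0.36, adjusted p = 0.0705, limma). The NIC-Carm1 and NIC libraries overlapped for Col8a1 and not for Col28a1. Col9a1 had 20205, 20929 and 21929 in NIC-Carm1, against 21264 and 25880 in NIC, and Col11a1 had 6916, 6562 and 6772, against 7546 and 7618. Their log2 fold changes were -0.16 ± 0.60 and -0.17 ± 0.41. NIC-Carm1 replicate 1 stood apart from the other NIC-Carm1 libraries: it had 24156 reads of Col4a1 and 23129 of Col1a1, where replicates 2 and 3 had 12420 and 12798 of Col4a1 and 14817 and 14705 of Col1a1.

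Set against NIC-Carm1, 24 collagen genes differed in NIC-Prmt1 (21 higher and 3 lower), where 26.8% of all genes tested did (14.9% higher and 11.8% lower), and 25 differed in NIC-Prmt6 (21 higher and 4 lower), where 39.2% of all genes tested did (20.9% higher and 18.4% lower). Both sets of libraries were compared with the same NIC-Carm1 libraries. With the near-identical libraries averaged, the counts were 11 in NIC-Prmt1 and 14 in NIC-Prmt6. For NIC-Prmt1 the largest rise was that of Col17a1, at 4591, 2742 and 3205 normalised reads in NIC-Prmt1 against 1156, 1107 and 1140 in NIC-Carm1 (1.60 ± 0.18, adjusted p = 0.00107, limma). The largest fall was that of Col9a1 (-2.13 ± 0.54, adjusted p = 0.0175, limma), which was -1.39 without NIC-Prmt1 replicate 1 and -2.84 without replicate 2, and whose call ended without NIC-Prmt1 replicate 3 (0.0517) or NIC-Carm1 replicate 3 (0.0503). Col28a1 was at 320, 212 and 123 in NIC-Prmt1, above every NIC-Carm1 library, and rose by 1.49 ± 0.32.

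For NIC-Prmt6 against NIC-Carm1 the largest rise was that of Col6a3, at 28861 and 29859 normalised reads in NIC-Prmt6 against 7212, 6300 and 6098 in NIC-Carm1 (2.17 ± 0.17, adjusted p = 4.79e-05, limma). Col5a1 rose by 1.95 ± 0.14 and Col18a1 by 1.83 ± 0.18, with no library of a group overlapping the other. Col9a1 fell furthest (-2.58 ± 0.60, adjusted p = 0.00826, limma), a call that ended without NIC-Prmt6 replicate 1 (0.0580) or 2 (0.0556) and on averaging (0.110). Col9a2 changed by -1.89 ± 0.28 in the same direction in every alternative.

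NIC-Prmt6 and NIC-Prmt1 differed in 13 collagen genes, 12 higher in NIC-Prmt6 and 1 lower, where 7.49% of all genes tested differed (4.94% higher and 2.54% lower). Fibrillar collagens were higher in 6 of 11 genes, beaded filament collagens in 4 of 6 and basement membrane collagens in 2 of 8. Col5a1 led, at 11423 and 11312 normalised reads in NIC-Prmt6 against 6118, 4586 and 5074 in NIC-Prmt1 (1.12 ± 0.14, adjusted p = 0.00263, limma). Col3a1 was higher by 1.10 ± 0.19, Col1a1 by 1.10 ± 0.23 and Col6a3 by 0.81 ± 0.17. Col17a1 was the gene that was lower, at 1303 and 1271 in NIC-Prmt6 against 4591, 2742 and 3205 in NIC-Prmt1 (-1.41 ± 0.20, adjusted p = 0.00485, limma). Col9a1, Col9a2, Col9a3 and Col11a1 did not pass in this comparison.

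The calls between NIC-Prmt6 and NIC-Prmt1 rested on both NIC-Prmt6 libraries, which were nearly identical. No collagen gene passed without NIC-Prmt6 replicate 1, without replicate 2 or with the near-identical libraries averaged, where limma gave 13, 15 and 14 genes at an unadjusted p under 0.05. On all libraries, edgeR gave 13 and DESeq2 gave 16. For Col5a1 the adjusted p was 0.0536 and 0.0544 without NIC-Prmt6 replicates 1 and 2, and for Col17a1 it was 0.0752 and 0.0780. Without NIC-Prmt1 replicate 3 the count was 6, and with a replicate block it was 5.

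The remaining calls against NIC lay near the threshold of 0.05. Col16a1, a fibril-associated collagen, had 11259, 7332 and 10968 normalised reads in NIC-Prmt1, against 6651 and 5455 in NIC, and rose by 0.68 ± 0.21 (adjusted p = 0.0351, limma). That call ended without NIC replicate 1 (0.0687) or 2 (0.204), without NIC-Prmt1 replicate 1 (0.0956) or 3 (0.0935) and without either NIC-Prmt6 library (0.0569 without replicate 1 and 0.0568 without replicate 2). Col6a6 rose by 0.83 ± 0.25 in NIC-Prmt1, a call that ended in 9 alternatives, with an adjusted p of up to 0.160 (without NIC replicate 1). Col13a1, a transmembrane collagen of cell adhesion sites, had 486 and 542 in NIC-Prmt6, against 185 and 256 in NIC, a change of 1.23 ± 0.43 (adjusted p = 0.0470, limma) that ended in 11 alternatives, with an adjusted p of up to 0.194 (without NIC replicate 1). The 14 genes Col2a1, Col4a3, Col4a4, Col4a5, Col6a4, Col7a1, Col8a1, Col8a2, Col19a1, Col20a1, Col23a1, Col25a1, Col26a1 and Col28a1 passed in no comparison with NIC, with log2 fold changes between -1.06 (Col28a1 in NIC-Carm1) and 1.39 (Col19a1 in NIC-Prmt6). Among them, Col7a1, which forms the anchoring fibrils under epithelia, had 2635, 2664 and 3210 in NIC-Prmt1, 3170, 1840 and 1936 in NIC-Carm1, 2179 and 2116 in NIC-Prmt6, and 2623 and 2226 in NIC. The highest library had 33.9 normalised reads of Col2a1, 41.4 of Col19a1 and 37.0 of Col26a1.

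The summed fibrillar collagens moved with markers of stromal cells. The sum of the 11 fibrillar genes was 5516, 4137 and 4925 CPM in NIC-Prmt1, 3909, 3162 and 3222 CPM in NIC-Carm1, 9731 and 9664 CPM in NIC-Prmt6, and 2720 and 3417 CPM in NIC. The 12 fibroblast markers, none of them a collagen, summed to 2368, 1894 and 2062 CPM in NIC-Prmt1, 858, 1335 and 1343 CPM in NIC-Carm1, 4237 and 4260 CPM in NIC-Prmt6, and 1132 and 1236 CPM in NIC. All 12 of these markers rose in NIC-Prmt6 against NIC and 7 of 12 in NIC-Prmt1, where 19.0% and 15.2% of all genes tested rose. In NIC-Carm1, 1 of 12 fell, near the 9.36% of all genes that fell there. On averaging, none of the 11 markers still tested passed in NIC-Carm1 (limma). The ratio of the fibrillar to the fibroblast sum was 2.33, 2.18 and 2.39 in NIC-Prmt1, 4.56, 2.37 and 2.40 in NIC-Carm1, 2.30 and 2.27 in NIC-Prmt6, and 2.40 and 2.77 in NIC. Apart from NIC-Carm1 replicate 1, the ratio thus lay between 2.18 and 2.77 in every library. For the type VI genes Col6a1, Col6a2 and Col6a3 the ratio to the fibroblast sum was 0.784, 0.818 and 0.725 in NIC-Prmt1, 0.875, 0.546 and 0.525 in NIC-Carm1, 0.608 and 0.614 in NIC-Prmt6, and 0.607 and 0.651 in NIC, so that every NIC-Prmt1 library lay above both NIC libraries. The 23 genes of the other types, without the fibrillar and basement membrane genes, together reached 3243, 3170 and 2901 CPM in NIC-Prmt1, 2558, 2549 and 2568 CPM in NIC-Carm1, 3669 and 3719 CPM in NIC-Prmt6, and 2350 and 2561 CPM in NIC. Between NIC-Prmt6 and NIC this sum differed by less than the fibroblast sum did, but it joins opposite moves. Col6a1, Col6a2 and Col6a3 together averaged 2595 CPM in NIC-Prmt6 and 745 CPM in NIC, while Col9a1, Col9a2 and Col9a3 were lower in NIC-Prmt6. The part of the fibroblast share in the collagen differences was not tested.

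Col4a1 and Col4a2 moved with endothelial markers. All 10 endothelial markers rose in NIC-Prmt1 and all 10 in NIC-Prmt6 against NIC, and limma called none in NIC-Carm1. They summed to 2368, 1716 and 2029 CPM in NIC-Prmt1, 1011, 1129 and 1125 CPM in NIC-Carm1, 2378 and 2368 CPM in NIC-Prmt6, and 917 and 1112 CPM in NIC. The Col4a1 and Col4a2 sum divided by the endothelial sum was 0.749, 0.860 and 0.932 in NIC-Prmt1, 1.54, 0.769 and 0.783 in NIC-Carm1, 0.874 and 0.874 in NIC-Prmt6, and 0.922 and 0.768 in NIC. NIC-Carm1 replicate 1 again lay above all other libraries. Pericyte markers, of cells that wrap small vessels, rose in 6 of 6 genes in NIC-Prmt1, 3 of 6 in NIC-Carm1 and 6 of 6 in NIC-Prmt6. Beside both the endothelial and pericyte counts, 15.2%, 6.65% and 19.0% of all genes tested rose in these groups. The part of vascular cells in the type IV differences was not tested.

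**Figure D4:**
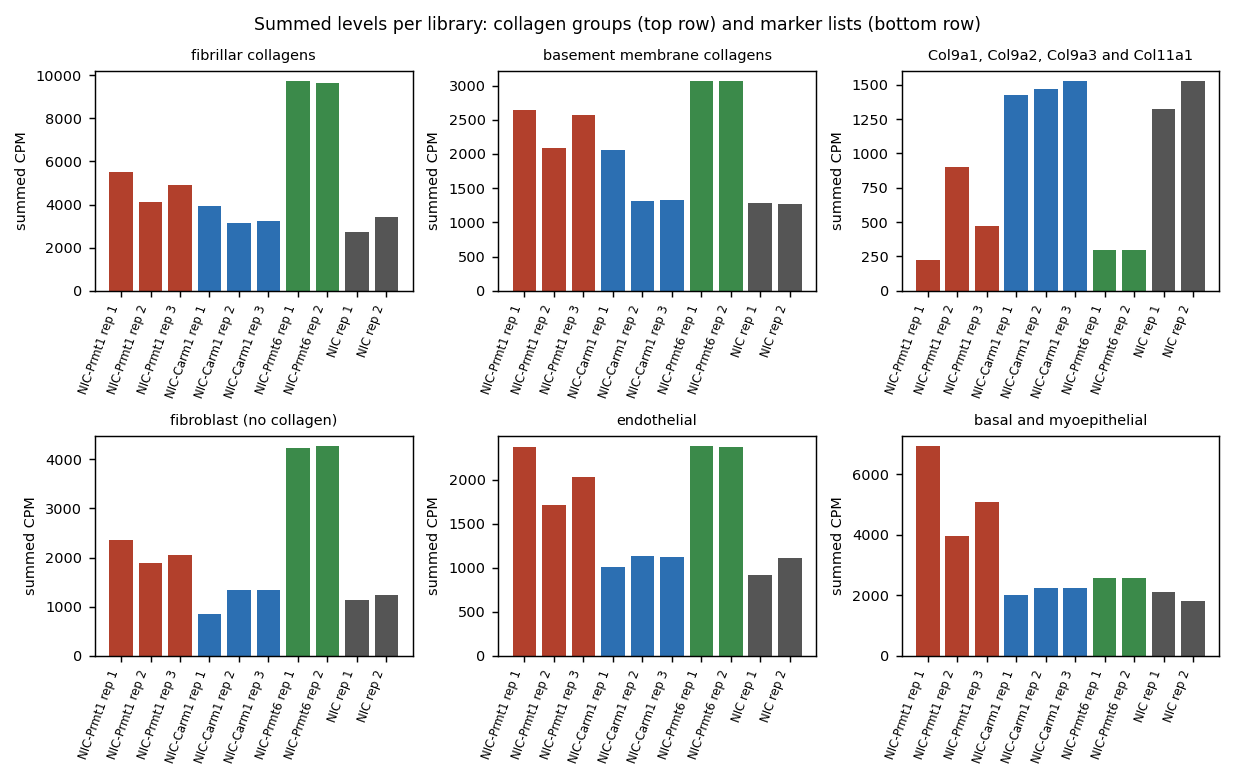
Summed CPM per library of collagen groups (top row) and of marker lists (bottom row), with a bar per library on linear axes from 0. The fibrillar sum is highest in NIC-Prmt6 (9731 and 9664 CPM), as is the fibroblast marker sum (4237 and 4260 CPM), while the sum of type IX genes and Col11a1 is 298 and 299 CPM in NIC-Prmt6 against 1323 and 1527 CPM in NIC.

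Col9a1, Col9a2, Col9a3 and Col11a1 together took 1.99%, 9.61% and 4.52% of all collagen reads in NIC-Prmt1, 16.7%, 21.0% and 21.4% in NIC-Carm1, 1.81% and 1.82% in NIC-Prmt6, and 20.8% and 21.1% in NIC. These 4 genes were grouped with their falls in these data known, so counts without them lean to rises by construction. Of the other 38 genes, 18 rose and 1 fell in NIC-Prmt6 against NIC, where 19.0% and 17.8% of all genes did. In NIC-Prmt1, 17 rose and 1 fell, where 15.2% and 14.4% of all genes did. The fall was that of Col11a2 in both. Cartilage markers were looked at beside the type IX genes and Col11a1, and of these markers Acan, Matn1 and Matn3 were not analysed here. Comp, Chad, Cytl1 and Sox9 summed to 294, 343 and 358 CPM in NIC-Prmt1, 293, 337 and 309 CPM in NIC-Carm1, 247 and 249 CPM in NIC-Prmt6, and 425 and 398 CPM in NIC. Sox9 made up most of each sum, and the markers were mixed. Their log2 fold changes from NIC ran from -2.11 to 0.32 in NIC-Prmt1, -0.76 to 0.09 in NIC-Carm1 and -2.94 to 0.10 in NIC-Prmt6. Cytl1 was the highest in NIC-Prmt1 and NIC-Prmt6. It had 2374, 1686 and 2093 normalised reads in NIC-Prmt1, against 1527 and 1734 in NIC, which overlapped. Chad, a cartilage matrix protein, had 71.1, 865 and 189 normalised reads in NIC-Prmt1, against 747 and 1302 in NIC, which overlapped, and 132 and 123 in NIC-Prmt6, a log2 fold change of -2.94 ± 0.85 (adjusted p = 0.0223, limma). The Chad call ended without NIC replicate 2 (0.127), without NIC-Prmt6 replicate 1 (0.0890) or 2 (0.0981) and on averaging (0.125).

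Sox9, a transcription factor that drives type II, IX and XI collagen genes in cartilage, had 4624, 5417 and 6721 normalised reads in NIC-Prmt1, 4920, 4918 and 4424 in NIC-Carm1, 4350 and 4419 in NIC-Prmt6, and 8878 and 7286 in NIC. It was lower than in NIC in all other groups, by -0.54 ± 0.15, -0.76 ± 0.15 and -0.88 ± 0.16 on the log2 scale in NIC-Prmt1, NIC-Carm1 and NIC-Prmt6. Without NIC replicate 1 the Sox9 call ended in NIC-Prmt1 (adjusted p = 0.154) and in NIC-Carm1 (0.0912), and without NIC-Prmt1 replicate 1 it ended in NIC-Prmt1 (0.0505). Sox10, from the same family and among the Schwann cell markers, had 4661, 5854 and 5040 in NIC-Prmt1, 11617, 9557 and 9171 in NIC-Carm1, 4713 and 4765 in NIC-Prmt6, and 9839 and 11932 in NIC. Its log2 fold change from NIC was -1.07 ± 0.14 in NIC-Prmt1, -0.11 ± 0.14 in NIC-Carm1 and -1.19 ± 0.15 in NIC-Prmt6. The part of either factor, or of any cell type, in the fall of the type IX and XI genes was not tested.

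The ratio of normalised reads of chains that assemble into the same molecule, which carries no correction for length, was compared across libraries. Col1a1 to Col1a2 was 1.02 in NIC-Carm1 replicate 1 and lay between 0.814 and 0.889 in the other libraries. Col6a1 to Col6a2 lay between 1.03 and 1.26 over all libraries. Col4a1 to Col4a2 was 1.30, 1.38 and 1.38 in NIC-Prmt1, against 1.49 and 1.53 in NIC, with no overlap, and 1.47 to 1.53 in the other libraries. The exact permutation test of the NIC-Prmt1 ratio against NIC (two-sided, on the log2 scale, difference -0.16) gave p = 0.2, which is the smallest p that 3 against 2 libraries allow. Col9a1 to Col9a2 spread furthest and was 1.02, 3.35 and 1.54 in NIC-Prmt1, 2.98, 3.44 and 3.63 in NIC-Carm1, 2.10 and 2.07 in NIC-Prmt6, and 3.74 and 3.49 in NIC. Col4a5 to Col4a6 was 1.18, 1.35 and 1.44 in NIC-Prmt1, 1.8, 1.7 and 1.7 in NIC-Carm1, and 1.43 and 1.53 in NIC-Prmt6. All of these lay below the 2.02 and 1.92 of NIC, and no test was run on these last 2 ratios.

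Genes whose products modify, export, crosslink, bind or degrade collagen were followed in a list of 50. Of these, 24 rose and 4 fell in NIC-Prmt1, 4 rose and 1 fell in NIC-Carm1, and 33 rose and 3 fell in NIC-Prmt6, each against NIC. Among all genes tested, 15.2% rose and 14.4% fell in NIC-Prmt1, 6.65% and 9.36% in NIC-Carm1, and 19.0% and 17.8% in NIC-Prmt6. These shares stand beside each list below. With near-identical libraries averaged, 16 rose and 3 fell in NIC-Prmt1, 1 fell in NIC-Carm1, and 23 rose and 1 fell in NIC-Prmt6. The NIC-Prmt1 counts were 12 and 3 without NIC replicate 1 and 16 and 2 without NIC replicate 2, and the NIC-Carm1 counts were 6 and 2 without NIC-Carm1 replicate 1. Chain modification and folding genes rose in 7 of 17 and fell in 1 in NIC-Prmt1, rose in 1 in NIC-Carm1, and rose in 11 and fell in 1 in NIC-Prmt6. The 1 rise in NIC-Carm1 (5.88%) was near the 6.65% of all genes. On averaging, 4 rose and 1 fell in NIC-Prmt1, none passed in NIC-Carm1 (limma), and 5 rose in NIC-Prmt6, where 5 rose without NIC-Prmt6 replicate 1 and 6 without NIC-Prmt6 replicate 2 or NIC replicate 1. In NIC-Prmt1, 3 rose and 1 fell without NIC replicate 1, and 4 rose without NIC replicate 2. Fkbp10, a chaperone of procollagen, rose by 1.23 ± 0.18 in NIC-Prmt1 and by 1.54 ± 0.20 in NIC-Prmt6. Crtap, part of the prolyl hydroxylation complex, rose by 0.70 ± 0.14 in NIC-Prmt1 and 1.01 ± 0.15 in NIC-Prmt6. Colgalt2, a collagen galactosyltransferase, rose by 1.40 ± 0.19 in NIC-Prmt1, P3h3 by 1.28 ± 0.16 in NIC-Prmt6, and Colgalt1 by 0.49 ± 0.12 in NIC-Carm1. The Colgalt1 call ended in 8 alternatives, among them without NIC replicate 1 (adjusted p = 0.166) or 2 (0.0611), without NIC-Carm1 replicate 2 (0.0525), without NIC-Prmt6 replicate 1 (0.0529) or 2 (0.0528) and with a replicate block (0.0714).

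Secretion and propeptide removal genes rose in 4 of 11 and fell in 1 in NIC-Prmt1, did not pass in NIC-Carm1, and rose in 7 of 11 in NIC-Prmt6. Across all genes tested, 15.2% rose in NIC-Prmt1 and 19.0% in NIC-Prmt6. In NIC-Prmt1 14.4% fell, a share that the 1 fall of 11 did not exceed. On averaging, 2 rose in NIC-Prmt1 and 4 in NIC-Prmt6. In NIC-Prmt1, 1 rose and 1 fell without NIC replicate 1, 3 rose without NIC replicate 2, and 2 rose and 1 fell without either NIC-Prmt6 library. Bmp1, which cuts the C-terminal propeptide of fibrillar collagens, averaged 5710 ± 85.9 normalised reads in NIC-Prmt6 and 2074 ± 16.0 in NIC (SD), a rise of 1.46 ± 0.13, and it rose by 0.63 ± 0.12 in NIC-Prmt1. Adamts2, which cuts the N-terminal propeptide, rose by 1.85 ± 0.19 in NIC-Prmt6 and by 0.75 ± 0.18 in NIC-Prmt1, and Pcolce, the enhancer of Bmp1, by 1.70 ± 0.27 in NIC-Prmt6. Creb3l1, a factor for procollagen secretion, fell by 0.49 ± 0.14 in NIC-Prmt1. Without NIC replicate 1 the Adamts2 call in NIC-Prmt1 ended (adjusted p = 0.105), and without NIC replicate 2 that of Creb3l1 did (0.153), as it did with a replicate block (0.0644). In NIC-Carm1 the smallest adjusted p of this list was that of Mia3 (0.223, limma).

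Crosslinking genes rose in 4 of 6 in NIC-Prmt1, 1 in NIC-Carm1 and 5 in NIC-Prmt6, and on averaging in 3 in NIC-Prmt1 and 4 in NIC-Prmt6. The shares of all genes tested that rose were 15.2% in NIC-Prmt1, 6.65% in NIC-Carm1 and 19.0% in NIC-Prmt6. Loxl1, an oxidase that crosslinks fibres, averaged 5389 ± 73.9 normalised reads in NIC-Prmt6, 2017 ± 269 in NIC-Prmt1 and 1175 ± 243 in NIC (SD). It rose by 2.21 ± 0.16 in NIC-Prmt6 (adjusted p = 5.38e-05, limma) and by 0.79 ± 0.15 in NIC-Prmt1. Loxl2, which acts on type IV collagen among others, rose by 1.84 ± 0.16 in NIC-Prmt6 and by 0.95 ± 0.15 in NIC-Prmt1, and Loxl4 by 2.55 ± 0.35 in NIC-Prmt6. Pxdn, the peroxidase that bonds type IV collagen, rose by 0.94 ± 0.14 in NIC-Prmt1 and by 0.73 ± 0.14 in NIC-Carm1, a call that ended without NIC replicate 1 (adjusted p = 0.0666) or 2 (0.0545) and on averaging (0.0556).

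Receptor genes rose in 6 of 10 and fell in 1 in NIC-Prmt1, fell in 1 in NIC-Carm1, and rose in 5 and fell in 1 in NIC-Prmt6. Rises took 15.2% of all genes tested in NIC-Prmt1 and 19.0% in NIC-Prmt6. The 1 fall of 10 in NIC-Carm1 was near the 9.36% of all genes that fell there. On averaging, the rises in NIC-Prmt1 were 4 and the other counts were as before. Without NIC replicate 1, and likewise without NIC replicate 2, 3 rose and 1 fell in NIC-Prmt1, and without NIC-Prmt1 replicate 1 these were 4 and 1. The discoidin receptors, which bind collagen, moved apart. Ddr1, the epithelial form, had 4086, 4199 and 4464 normalised reads in NIC-Prmt1, 4962, 4909 and 4731 in NIC-Carm1, 4042 and 4243 in NIC-Prmt6, and 8709 and 8221 in NIC. All 8 libraries of the other groups lay below both NIC libraries, and Ddr1 changed by -0.99 ± 0.08 in NIC-Prmt1, -0.80 ± 0.08 in NIC-Carm1 and -1.03 ± 0.09 in NIC-Prmt6, with every alternative past the threshold. Luminal epithelial markers were looked at beside Ddr1 and were mixed. The 12 of them came to 6983, 8439 and 9662 CPM in NIC-Prmt1, 7770, 6484 and 6642 CPM in NIC-Carm1, 6395 and 6421 CPM in NIC-Prmt6, and 11998 and 9815 CPM in NIC, so that both NIC libraries were the highest. Of the 12, 3 rose and 4 fell in NIC-Prmt1, 6 fell in NIC-Carm1 and 7 fell in NIC-Prmt6. Of all genes tested, 14.4%, 9.36% and 17.8% fell in these groups, and 15.2% rose in NIC-Prmt1. On averaging, 1 rose and 3 fell in NIC-Prmt1, none passed in NIC-Carm1 (limma) and 3 fell in NIC-Prmt6. Epcam, an adhesion protein of epithelial cells, averaged 22472 ± 4630 normalised reads in NIC-Prmt1, 25286 ± 542 in NIC-Carm1, 17974 ± 195 in NIC-Prmt6 and 48735 ± 1833 in NIC (SD). Krt7, Krt19 and Elf3 went the other way in NIC-Prmt1, where they averaged 8854, 31291 and 2334, against 5543, 20577 and 1534 in NIC. Elf5 averaged 8412 ± 2854 in NIC-Carm1 and 5554 ± 368 in NIC (SD). The part of the epithelial share in the Ddr1 difference was not tested. Ddr2, the mesenchymal form, had 6558 and 6474 in NIC-Prmt6, against 1302 and 1487 in NIC, a rise of 2.23 ± 0.21 (adjusted p = 0.000123, limma). Mrc2, an uptake receptor for collagen, averaged 2884 ± 32.2 in NIC-Prmt6 and 724 ± 96.2 in NIC (SD), a rise (adjusted p = 3.33e-05, limma), and Itga1, a chain of a type IV collagen receptor, by 0.96 ± 0.16 in NIC-Prmt1.

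Degradation genes rose in 3 of 6 and fell in 1 in NIC-Prmt1, rose in 2 in NIC-Carm1, and rose in 5 and fell in 1 in NIC-Prmt6. Beside them, 15.2%, 6.65% and 19.0% of all genes tested rose in these groups. Falls took 14.4% in NIC-Prmt1 and 17.8% in NIC-Prmt6, near the 1 fall of 6 in each. On averaging, the NIC-Prmt1 counts were as before, none passed in NIC-Carm1 (limma), and 5 rose in NIC-Prmt6. In NIC-Prmt1, 2 rose without NIC replicate 1, and 5 rose and 1 fell without NIC-Carm1 replicate 1. Mmp9, a gelatinase that cuts denatured and type IV collagen, had 89.1, 211 and 136 normalised reads in NIC-Prmt1, 104, 262 and 246 in NIC-Carm1, 390 and 407 in NIC-Prmt6, and 26.5 and 2.60 in NIC. All 8 libraries of the other groups lay above both NIC libraries, and the log2 fold change was 3.79 ± 0.73 in NIC-Prmt1, 4.25 ± 0.73 in NIC-Carm1 and 5.33 ± 0.80 in NIC-Prmt6. The NIC libraries lay far apart: without NIC replicate 1 these changes were 5.26, 5.72 and 6.79, and without NIC replicate 2 they were 2.33, 2.79 and 3.86, in the same order of groups, all past the threshold. Macrophage markers were looked at beside Mmp9, and their median log2 fold change was 0.18 in NIC-Prmt1, 0.68 in NIC-Carm1 and 1.06 in NIC-Prmt6. The 9 of them came to 257, 420 and 360 CPM in NIC-Prmt1, 352, 569 and 571 CPM in NIC-Carm1, 692 and 708 CPM in NIC-Prmt6, and 266 and 231 CPM in NIC. Of the 9, 2 rose in NIC-Prmt1, 3 in NIC-Carm1 and 9 in NIC-Prmt6, where 15.2%, 6.65% and 19.0% of all genes tested rose. On averaging, these counts were 2, 1 and 3. Mrc1, a mannose receptor of macrophages, averaged 901 ± 302 normalised reads in NIC-Prmt1, 1258 ± 599 in NIC-Carm1, 2999 ± 16.2 in NIC-Prmt6 and 155 ± 129 in NIC (SD). Cd163, a scavenger receptor of macrophages, averaged 296 ± 80.4 in NIC-Prmt1, 380 ± 235 in NIC-Carm1, 985 ± 49.0 in NIC-Prmt6 and 15.4 ± 8.93 in NIC (SD). Other markers of the list lay closer to NIC in NIC-Prmt1. Cd68, Adgre1 and Csf1r averaged 701 ± 131, 323 ± 72.6 and 1783 ± 566 there, against 661 ± 87.3, 337 ± 11.1 and 1541 ± 349 in NIC (SD). The part of macrophages in the differences of the degradation genes was not tested. Mmp14, a membrane protease for fibrillar collagen, rose by 1.29 ± 0.17 in NIC-Prmt1, 1.05 ± 0.17 in NIC-Carm1 and 1.53 ± 0.18 in NIC-Prmt6. With near-identical libraries averaged, the NIC-Carm1 calls of Mmp9 (adjusted p = 0.0585) and Mmp14 (0.0520) ended. Fap, a protease of activated fibroblasts, had 939 and 987 in NIC-Prmt6, against 148 and 203 in NIC, a rise of 2.47 ± 0.20 (adjusted p = 7.44e-05, limma). Ctsk, a collagenase of osteoclasts, rose by 1.87 ± 0.27 in NIC-Prmt6. Mmp13, a collagenase, had 24.8, 29.6 and 34.9 in NIC-Carm1, against 83.2 and 59.8 in NIC, and did not pass (adjusted p = 0.0559, limma).

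**Figure D5:**
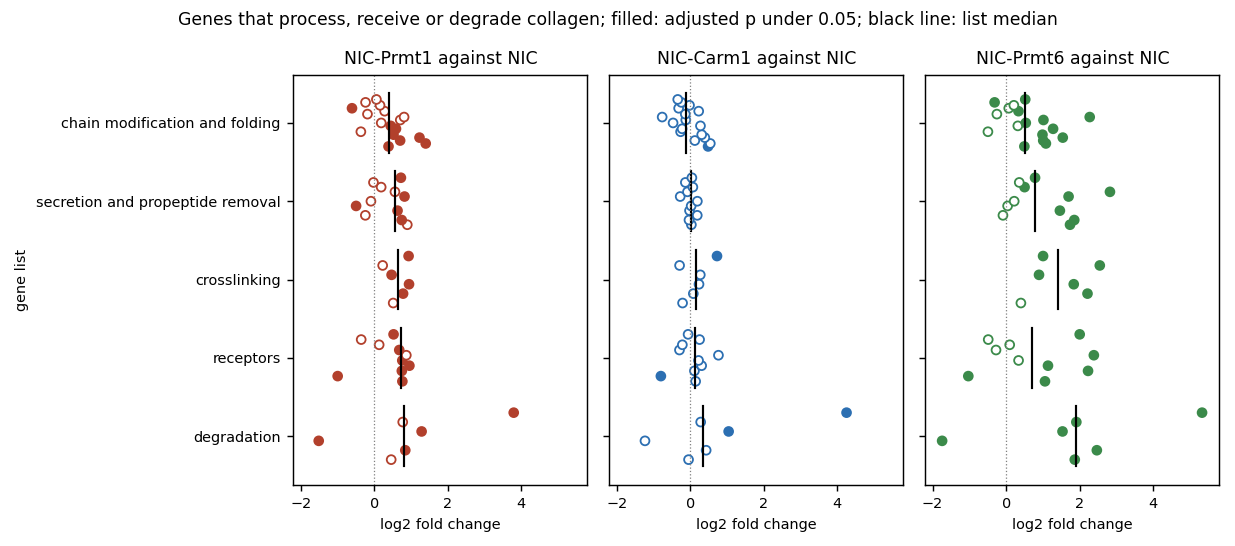
Log2 fold change against NIC of each gene of the 5 lists of collagen partners, in NIC-Prmt1, NIC-Carm1 and NIC-Prmt6 (panels); filled points passed an adjusted p of 0.05 (limma) and the black line is the median of the list. In NIC-Prmt6, 33 of 50 points are filled on the right of 0 and 3 on the left, against 4 and 1 in NIC-Carm1.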

How the data were processed

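The submitters' processing notes name TopHat2 2.0.10, HTSeq 0.6.0, DESeq 1.18.0 and the mm10 build. They give no annotation, strand setting or filter. The deposited table holds a normalised signal: 100% of the authors' values, column by column, equalled a whole number of steps of 1 read (tolerance 0.01), so it is the read count per gene divided by a size factor, and whole reads were recovered by multiplying back. Counting error is small at 21589274 to 30260921 reads per library, except for genes with few reads.

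The main test was limma-trend (limma 3.58.1, R 4.3.3) on log2(value + 1) for 15694 genes that reached a value of 10 in 2 or more libraries, with 4 group means over 10 libraries (6 residual degrees of freedom) and Benjamini-Hochberg adjustment. It was also run on simulated data. Those had independent libraries and fewer changed genes than were called here, so that run does not give the error rate for these libraries. Alternatives were edgeR 4.0.16 and DESeq2 1.42.0 on recovered reads, the 2 compared groups alone, a replicate block, TMM rescaling, pseudocounts of 0.5 and 5, no filter, a filter at 50, near-identical libraries averaged, and each library left out. Same-numbered libraries did not deviate together (correlations of -0.132 to 0.100 over 13 pairs), so the numbers were not taken as pairs.

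Values per library are given for the 2 fibrillar, basement membrane and beaded filament genes with the highest mean normalised reads, a choice made without division by exon length. They are also given for the largest rise and fall of each comparison, for genes called against the direction of their type, and for others singled out. Partner genes were named by the 3 smallest adjusted p of each list, in part. The members and lists were chosen with earlier results of these data known. CPM are recovered reads scaled to a common library total. Exon lengths and gene positions are from GENCODE vM21 (GRCm38), and promoters from RefSeq.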

Additional observations from a re-analysis of the deposited data

How the results depend on the processing

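Of 108 collagen calls over the 6 comparisons, 50 passed in all 20 alternatives, and none changed direction in any: 9 of 21 for NIC-Prmt1 against NIC, 0 of 2 for NIC-Carm1 against NIC, 16 of 23 for NIC-Prmt6 against NIC, 11 of 24 for NIC-Prmt1 against NIC-Carm1, 0 of 13 for NIC-Prmt6 against NIC-Prmt1 and 14 of 25 for NIC-Prmt6 against NIC-Carm1. Leaving out each library in turn gave 13 to 26, 0 to 7, 18 to 25, 18 to 26, 0 to 16 and 18 to 27 called genes in that order. For NIC-Carm1 against NIC, the count of 2 became 5 with DESeq2 and 1 with the 2 groups alone. With near-identical libraries averaged it was 0, and the counts became 11 for NIC-Prmt1 against NIC-Carm1, 0 for NIC-Prmt6 against NIC-Prmt1 and 14 for NIC-Prmt6 against NIC-Carm1. That setting has fewer libraries, and where it gave 0, limma had 6 and 14 genes at an unadjusted p under 0.05. A replicate block gave 1 gene for NIC-Carm1 against NIC and 5 for NIC-Prmt6 against NIC-Prmt1, and the other counts stayed within 1.5 times, although the numbers did not pair the libraries. Without NIC-Prmt6 or NIC replicates the remaining library of that group was assumed to vary like the other groups. Groups of 2 and 3 libraries, a pair of which in NIC-Prmt6 are nearly identical, limit what these comparisons can show.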
